A study of Picromerus lewisi with 6 samples.

Results

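Of 15 transcript clusters annotated as odorant-binding proteins in the venom glands of Picromerus lewisi, 4 are described here that were present in the gland of one stage and near 0 in that of the other. A further cluster, Cluster-12593.0, had the same pattern at a low level and is described beside them. The 4 were taken from a table of 22242 clusters, a cluster being a group of assembled transcripts treated as 1 gene. Cluster-9520.6260 and Cluster-9520.6256 belonged to the adult gland, and Cluster-9520.4318 and Cluster-9681.0 to the nymph gland. The 4 were chosen by the stage difference itself, so their values are given as a description without a test.

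Picromerus lewisi is a predatory stink bug of the family Pentatomidae that injects salivary venom into insect prey. The series compared venom glands of adults (3 libraries) with venom glands of 5th instar nymphs (3 libraries), and the labels name no treatment or genetic change. TRIzol served for the total RNA and the NEBNext Ultra kit for the libraries, per the labels' protocols. Sex, age in days and the number of animals per library are not given in the sources used here, and the p-values below therefore reflect library-to-library spread alone, some of which may be technical.

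Odorant-binding proteins are small secreted proteins that hold a hydrophobic molecule in a pocket closed by disulfide bridges. In the antennae of insects they carry odorants through the fluid around the olfactory neurons to the receptors. Members of the family are also made outside the antennae, salivary glands among them, where they can bind other small hydrophobic ligands.

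Levels were deposited as FPKM, the fragments of a cluster per kilobase of its length and per unit of mapped fragments in the library. Low values move in steps of 1 fragment, which allowed the number of fragments behind each value to be recovered. The length behind the FPKM, as fitted from low values, was 217 to 293 bases shorter than the cluster, which weighs most in short clusters. Clusters of 400 bases or more held between 13336128 and 18654075 fragments in each library. Clusters with an FPKM of at least 1 numbered 4927, 18155 and 8679 in adult replicates 1, 2 and 3, against 14040, 10862 and 11693 in nymph replicates 1, 2 and 3. Adult replicates 1 and 3 thus had the fewest clusters detected and adult replicate 2 the most. Of 98 clusters matching cytosolic ribosomal proteins, which every cell uses, 5 to 23 per library were listed at 0, so a 0 is given here only as listed at 0.

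The annotation was closest for the nymph clusters. Cluster-9520.4318, of 674 bases, matched odorant-binding protein 2 of the stink bug Halyomorpha halys among proteins (score 840, E-value 1.61e-112) and odorant-binding protein 9 of the stink bug Nezara viridula among nucleotide sequences (score 497). Its protein families were the PBP/GOBP family, which holds the pheromone-binding and general odorant-binding proteins, and the Major Facilitator Superfamily. Its gene ontology terms were odorant binding, transmembrane transporter activity and transmembrane transport. It had no Swiss-Prot, KO or KOG match.

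Cluster-9681.0, of 466 bases, matched a putative odorant-binding protein 4 of the stink bug Chinavia ubica (score 546, E-value 2.83e-69). In Swiss-Prot it matched general odorant-binding protein 28a of Drosophila melanogaster (score 131, E-value 4.47e-09). The PBP/GOBP family and the term odorant binding were its only domain and ontology entries, and it had no nucleotide, KO or KOG match.

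The adult clusters were longer and less closely matched. Cluster-9520.6260, of 1758 bases, had an unnamed Nezara viridula protein as its best match (score 444, E-value 9.22e-49). Its name came from the nucleotide match, odorant binding protein 12 of Nezara viridula (score 93, E-value 1.25e-37). The PBP/GOBP family and the term odorant binding were given for it too, and Swiss-Prot, KO and KOG gave nothing.

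Cluster-9520.6256, of 2287 bases, carried the family name on weaker ground than the others. Its best protein match was an uncharacterized protein of Halyomorpha halys (score 261, E-value 8.56e-23), listed together with odorant-binding protein 17 of the same species. The nucleotide match was to a genome assembly of the stink bug Aelia acuminata (score 94, E-value 4.54e-38), with no gene named. Its domain entries were the Sid-5 family and the CDR ABC transporter and not PBP/GOBP. Its ontology terms followed those domains: ATP binding, ATPase-coupled transmembrane transporter activity, transmembrane transport, RNA transport, RNA-mediated gene silencing and late endosome. Swiss-Prot, KO and KOG again gave nothing. A cluster carries the name of its best match, and several clusters may be copies or pieces of 1 gene, with reads that the counting could split between them.

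In adult glands, Cluster-9520.6260 was the most abundant odorant-binding cluster of every library. Its FPKM was 1368, 5311 and 791 in adult replicates 1, 2 and 3, against 0.68, 0 and 0 in nymph replicates 1, 2 and 3. The lowest adult library stood 1163-fold above the highest nymph library, and the stages did not overlap. These values rest on 28017, 115763 and 21750 fragments in the adult libraries, against 15 fragments in nymph replicate 1. One fragment was worth 0.036 to 0.049 FPKM for this cluster, so the nymph value was small but more than a single fragment. It held rank 44 of 7175 clusters above 0 in adult replicate 1, rank 46 of 19561 in adult replicate 2 and rank 76 of 9094 in adult replicate 3. Of all mapped fragments, 0.201%, 0.804% and 0.117% belonged to it in adult replicates 1, 2 and 3.

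Cluster-9520.6256 followed the same pattern at a lower level per length. Its FPKM was 297.9, 2595 and 110.2 in adult replicates 1, 2 and 3, against 0.7, 0 and 0 in nymph replicates 1, 2 and 3. The lowest adult library was 158-fold above the highest nymph library. The fragments behind these values were 8295, 76324 and 4114 in the adult libraries, against 21 in nymph replicate 1. Nymph replicate 1 was the one nymph library with fragments of either adult cluster.

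The adult clusters were the most variable of the 4 within their stage. Between the highest and the lowest adult library, deposited FPKM differed 6.71-fold for Cluster-9520.6260 and 23.6-fold for Cluster-9520.6256. Adult replicate 2 was highest and adult replicate 3 lowest in both. The ratio of Cluster-9520.6256 to Cluster-9520.6260, each in FPKM, was 0.218, 0.489 and 0.139 in adult replicates 1, 2 and 3, so they did not keep a fixed proportion. In nymph replicate 1, with few fragments, it was 1.03.

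Each library was rescaled by 1 factor, from the median ratio over clusters above 0 in all 6 libraries, to allow for the unequal share of a few very abundant clusters. On that scale Cluster-9520.6260 was at 2856 ± 2184 in adults and 0.222 ± 0.384 in nymphs, whereas Cluster-9520.6256 was at 901 ± 766 in adults and 0.228 ± 0.395 in nymphs (SD, n = 3 each). Rescaling made adult replicate 1 the highest for Cluster-9520.6260, at 4826, with 3234 in adult replicate 2 and 507 in adult replicate 3. For Cluster-9520.6256 adult replicate 2 stayed highest, with a rescaled FPKM of 1580. The differences on the log2(rescaled FPKM + 1) scale, adult minus nymph, were 10.72 for Cluster-9520.6260 and 8.69 for Cluster-9520.6256, with a spread within stages of 1.26 and 1.74 (residual SD). These are whole glands, so fewer cells of a type and less RNA per cell cannot be told apart.

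Cluster-9520.4318 was the leading nymph cluster of the 4. Its FPKM was 0, 0.16 and 0 in adult replicates 1, 2 and 3, against 225.9, 337 and 270.1 in nymph replicates 1, 2 and 3. The adult value came from 1 fragment, in adult replicate 2, and the nymph values from 1490, 2451 and 1858 fragments. Among clusters above 0 it ranked at place 233, 184 and 165 in nymph replicates 1, 2 and 3.

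This cluster was also the most even of the 4. The nymph libraries differed 1.49-fold in deposited FPKM and 1.23-fold after rescaling. Rescaled FPKM was 0.0325 ± 0.0562 in adults and 247 ± 25.9 in nymphs (SD, n = 3 each), a log2 difference of -7.91 with a spread within stages of 0.12.

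Cluster-9681.0 was the weakest of the 4. It was listed at 0 in all 3 adult libraries, against 19.8, 13.6 and 6.08 FPKM in nymph replicates 1, 2 and 3. Only 71, 45 and 19 fragments stood behind the nymph values. At 466 bases, 1 fragment was worth 0.29 to 0.4 FPKM in the adult libraries and 0.28 to 0.32 in the nymph libraries. The nymph libraries differed 3.25-fold, with nymph replicate 1 highest and nymph replicate 3 lowest. No fold is given against a stage listed at 0. Cluster-9520.4318 was 11.4, 24.8 and 44.4 times higher in FPKM than Cluster-9681.0 in nymph replicates 1, 2 and 3.

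**Figure D1:**
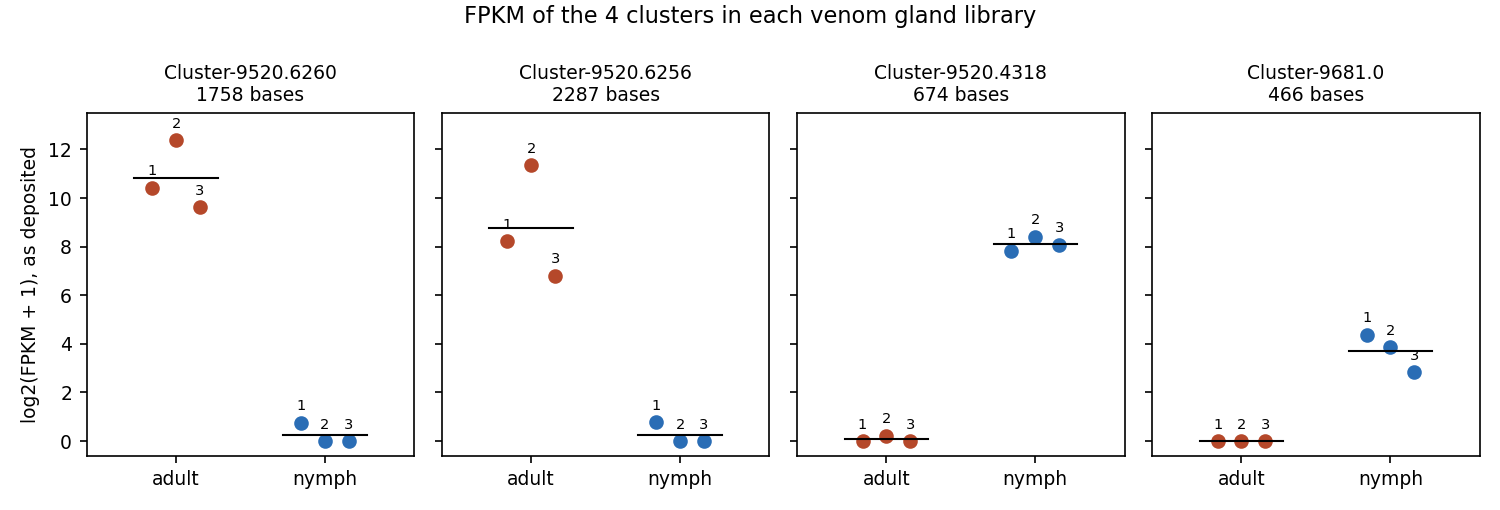
Deposited FPKM of the 4 stage-specific clusters, as log2(FPKM + 1), in each of 3 adult and 3 nymph libraries; the numbers beside the points are replicate numbers and the black lines are means of the plotted values. Cluster-9520.6260 and Cluster-9520.6256 are high in the adult libraries and Cluster-9520.4318 and Cluster-9681.0 in the nymph libraries, with no overlap between stages in any panel.

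The stage comparison over all clusters used limma on log2(rescaled FPKM + 1) for the 11961 clusters that reached an FPKM of 1 in 3 or more libraries, with p-values adjusted by Benjamini-Hochberg over all of them. All 4 clusters passed that filter, each through the stage where it is high. The adjusted p of 0.05 was passed by 0.234% of all tested clusters (0.1% higher in adults and 0.134% lower); the 4 are not set against that share. The stages did not overlap for any of the 4: adults were above nymphs in 2, as in 2.06% of all tested clusters, and below nymphs in 2, as in 6.6%. Since this contrast chose the 4, nothing is read from this.

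Clusters with at least 100 FPKM in every library of one stage and below 1 in every library of the other were counted. The stage-specific odorant-binding clusters were chosen for a pattern of this kind, so the counts are a description and nothing is read from them. Of 117 clusters with at least 100 FPKM in all adult libraries, 2 (1.71%) were below 1 in all nymph libraries. They were Cluster-9520.6260 and Cluster-9520.6256. At a threshold of 10 FPKM there were 5 such clusters among 530 (0.943%). The other 3 were the trehalose transporter Cluster-9520.2483, the histidine decarboxylase Cluster-9520.2665 and Cluster-9520.5846. Of 229 clusters with at least 100 FPKM in all nymph libraries, 1 (0.437%) was below 1 in all adult libraries, Cluster-9520.4318. At 10 FPKM there were 12 such clusters among 1131 (1.06%). The weaker Cluster-9681.0 was counted at a lower level and under a stricter rule for the other stage. Of 2056 clusters with at least 5 FPKM in all nymph libraries, 30 (1.46%) were listed at 0 in all adult libraries. Under the rule of less than 1 there were 39 (1.9%), and counts at different thresholds are not compared. These thresholds were set after the values were seen, and Cluster-9520.6256, at 110.2 FPKM in adult replicate 3, lay just above 100. At 200 FPKM, 1 of 80 clusters on the adult side had the pattern, Cluster-9520.6260.

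**Figure D2:**
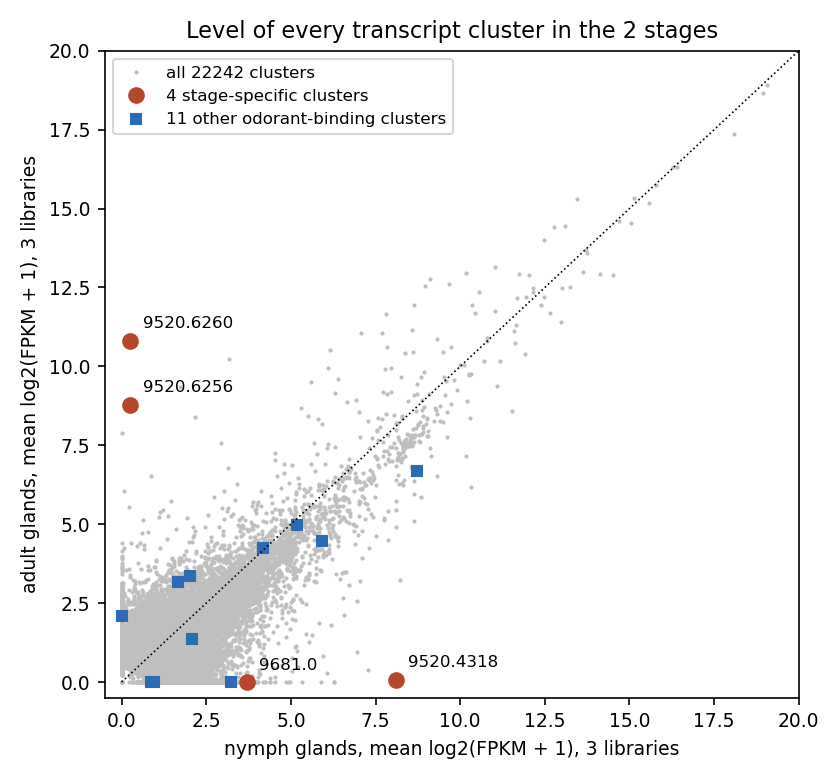
Mean log2(FPKM + 1) over 3 adult libraries against the mean over 3 nymph libraries for all 22242 clusters, with the dotted line at equal levels. The 4 stage-specific clusters lie along the axes and most of the 11 other odorant-binding clusters lie nearer the dotted line.

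Among the other 11 odorant-binding clusters, 8 passed the filter on low values and 0 passed the adjusted p of 0.05 in limma, against 0.234% of all tested clusters. At an unadjusted p under 0.05 there were 3, or 37.5%, against 9.05% of all tested clusters. Of the 8, 4 were above 0 and 4 below 0 in adults on the log2 scale, and the median difference was -0.41, near the -0.29 of all tested clusters. The stages did not overlap in deposited FPKM in 1 of the 8, Cluster-12593.0, a share of 12.5% against 8.66% of all tested clusters. That cluster, also among the 3 at an unadjusted p under 0.05, passed the filter through the nymph libraries alone. Its lack of overlap was thus fixed by the filter, and nothing is read from it. After rescaling the stages did not overlap in 2 of the 8, with Cluster-9520.4313 added, a share of 25% against 14.1% of all tested clusters.

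Cluster-12593.0 stands just outside the 4 and had the pattern of Cluster-9681.0. It was listed at 0 in all adult libraries, against 13.2, 3.7 and 10.97 FPKM in nymph replicates 1, 2 and 3, from 55, 15 and 42 fragments (limma adjusted p = 0.21, from 0.16 to 0.42 over 12 other settings). Because it entered the test through its nymph libraries alone, that p is given as a description. Its nymph values lay in the same range as those of Cluster-9681.0, the weakest of the 4. On the adult side, Cluster-9520.6569, matching general odorant-binding protein 70, had 0, 12.3 and 4.99 FPKM in adult replicates 1, 2 and 3, against listed at 0 in every nymph library. It was above 1 FPKM in only 2 libraries and was not tested.

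Cluster-12593.0 and the adult Cluster-9520.6256 had the same best protein match, odorant-binding protein 17 of Halyomorpha halys. The match was stronger for Cluster-12593.0, with a score of 625 against 261, and only Cluster-12593.0 carried the PBP/GOBP family. A further cluster with this match, Cluster-4280.0 of 391 bases, was at 4.95 FPKM in nymph replicate 3 and listed at 0 in the other libraries. Clusters with this best match were thus highest in different stages, Cluster-4280.0 through only 9 fragments. Whether they come from related genes was not tested. No other cluster shared its best protein match with Cluster-9520.6260, Cluster-9520.4318 or Cluster-9681.0.

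The most abundant odorant-binding cluster present in both stages was Cluster-9520.4313. Its first protein name was a neural Wiskott-Aldrich syndrome protein of Halyomorpha halys. Odorant-binding protein 18 of that species was a further protein name and its nucleotide match. The cluster had no protein family or ontology entry, and so no PBP/GOBP family. It was at 18.8, 158.5 and 344 FPKM in adult replicates 1, 2 and 3, against 684, 361 and 307 in nymph replicates 1, 2 and 3 (log2 difference -1.75 ± 0.62 SE, limma adjusted p = 0.38, from 0.21 to 1 over 15 other settings). In deposited FPKM the stages overlapped through adult replicate 3 and nymph replicate 3. After rescaling they did not, with 66.4, 96.5 and 220.9 in adult replicates 1, 2 and 3, against 669, 266 and 309.9 in nymph replicates 1, 2 and 3. In every nymph library it was the leading odorant-binding cluster, with Cluster-9520.4318 second. Their order was clear in nymph replicate 1, where Cluster-9520.4318 had 0.331 of its FPKM, and close in nymph replicates 2 and 3, at 0.932 and 0.88.

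Cluster-9520.5064, an uncharacterized protein with the PBP/GOBP family, was at 8.74, 11.9 and 83.4 FPKM in adult replicates 1, 2 and 3, against 129, 26.6 and 59.5 in nymph replicates 1, 2 and 3 (limma adjusted p = 0.74). Cluster-9520.4760, matching odorant binding protein 21 of Nezara viridula, was between 8.43 and 61.0 FPKM in adults and between 9.27 and 30.8 in nymphs (limma adjusted p = 0.91). In both clusters the stages overlapped.

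Odorant binding protein 16 of Nezara viridula was the best match of 3 clusters. For Cluster-9520.4265 that match was weak (score 182, E-value 1.75e-12) and no PBP/GOBP family was given. Cluster-9520.4266 was between 16.8 and 72.8 FPKM in adults and between 20.7 and 79.6 in nymphs (limma adjusted p = 0.97). Cluster-9520.4265 was at 1.81, 20.3 and 17.4 FPKM in adult replicates 1, 2 and 3, against 8.0, 1.96 and 1.48 in nymph replicates 1, 2 and 3 (limma adjusted p = 0.55). Cluster-7682.0 was between 7.29 and 8.57 FPKM in adults and between 0 and 9.99 in nymphs (limma adjusted p = 0.7). Of the 3, Cluster-9520.4265 had a log2 difference of 1.49 ± 0.67 SE and an unadjusted p of 0.049 in limma, and the stages overlapped in each. The unnamed Cluster-5860.0 was above 0 in adult replicate 3 and nymph replicates 1 and 3 (limma adjusted p = 0.84). Cluster-9628.0, of 317 bases and matching odorant-binding protein 9 of Halyomorpha halys, was above 0 in nymph replicate 1 alone, at 6.22 FPKM.

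**Figure D3:**
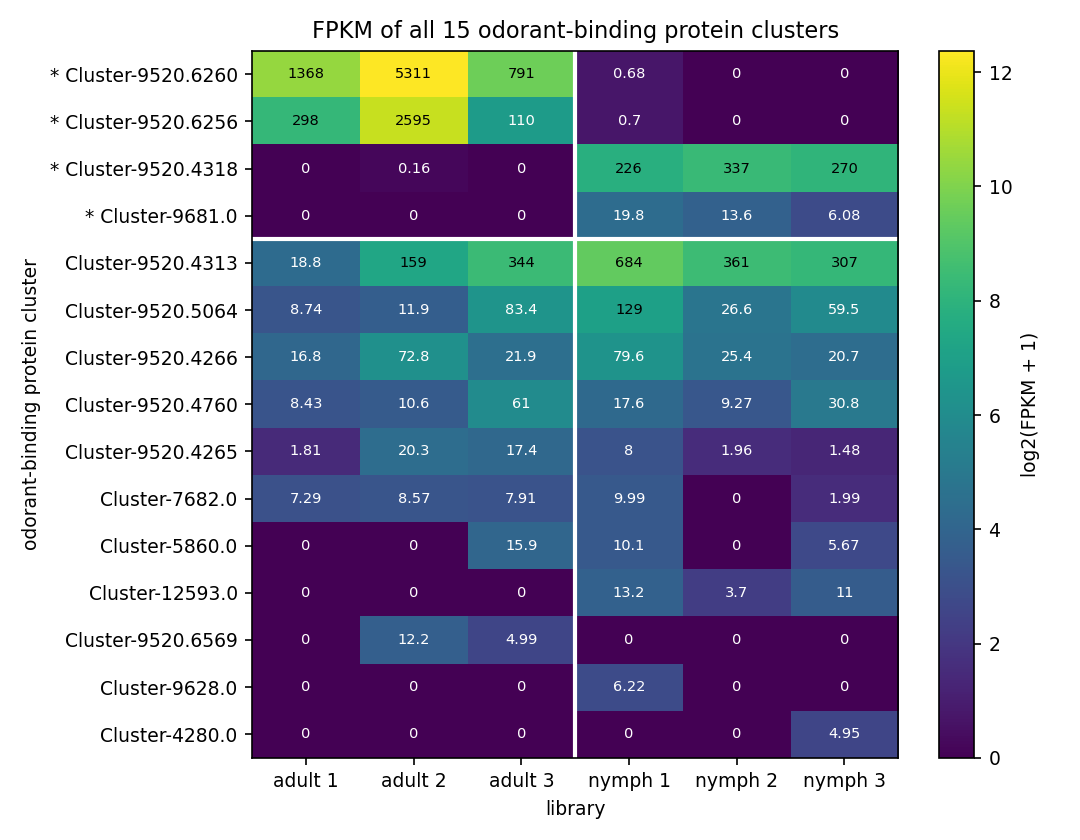
Deposited FPKM of all 15 odorant-binding protein clusters (rows) in the 3 adult and 3 nymph libraries (columns), printed in each cell and coloured by log2(FPKM + 1); asterisks and the white horizontal line set the 4 stage-specific clusters apart. The 4 upper rows are bright in one stage, whereas Cluster-9520.4313 is present in all 6 libraries.

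Summed over the family, adult libraries held 1728, 8202 and 1458 FPKM in replicates 1, 2 and 3, and nymph libraries 1205, 779 and 719. The makeup of that sum differed. Cluster-9520.6260 and Cluster-9520.6256 together took 96.4%, 96.4% and 61.8% of it in adult replicates 1, 2 and 3, against 0.115%, 0% and 0% in nymph replicates 1, 2 and 3. Cluster-9520.4318 and Cluster-9681.0 took at most 0.00195% in any adult library, against 20.4%, 45.0% and 38.4% in nymph replicates 1, 2 and 3. In adult replicate 3, unlike the other adult libraries, Cluster-9520.4313 was second. The 11 other clusters summed to 61.8, 295 and 557 FPKM in the adult libraries and to 958, 428 and 443 in the nymph libraries. These sums contain the clusters chosen for their stage difference and are a description.

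Over the 6 libraries, the log2(rescaled FPKM + 1) of the adult clusters ran together (Pearson r = 0.99), as did that of the nymph clusters (r = 0.965). The same 6 libraries and the stage difference that chose them underlie both values. Among 2061 tested clusters with a protein description and a mean of at least 10 FPKM in the higher stage, the same 2 clusters came first for both adult clusters. The stage difference over the same 6 libraries underlies these r values too, so the most alike clusters are given as a description.

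A carboxypeptidase B, an enzyme that trims basic amino acids from protein ends (Cluster-9520.4052), headed the list for both, with r = 0.995 to Cluster-9520.6260 and 0.997 to Cluster-9520.6256. It was at 340.4, 2875 and 285 FPKM in adult replicates 1, 2 and 3, against 2.47, 3.13 and 1.51 in nymph replicates 1, 2 and 3. The trehalose transporter Tret1 (Cluster-9520.2483) was next for both (r = 0.994 and 0.996), with 18.0, 167 and 31.2 FPKM in adult replicates 1, 2 and 3 and no more than 0.42 in any nymph library. Next came histidine decarboxylase, which makes histamine, through a different cluster for each. Cluster-9520.2665 (r = 0.992 to Cluster-9520.6260) had 77.4, 1004 and 172 FPKM in adult replicates 1, 2 and 3, and no nymph library listed it above 0. Cluster-9520.6347 (r = 0.994 to Cluster-9520.6256) had 9.13, 90.9 and 9.49 FPKM in adult replicates 1, 2 and 3 and no more than 0.78 in any nymph library.

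Closest to the nymph Cluster-9520.4318 were an S phase cyclin A-associated protein (Cluster-6851.0, r = 0.997) and the cuticle protein 6.4 (Cluster-9520.3694, r = 0.991), a structural protein of the exoskeleton. Both were listed at 0 in every adult library. A venom serine protease (Cluster-9520.3948, r = 0.982) followed, at 39.0, 284 and 260.1 FPKM in adult replicates 1, 2 and 3, against 954, 1938 and 827 in nymph replicates 1, 2 and 3. For Cluster-9681.0 the most alike were a cuticle protein (Cluster-9520.5710), a heterogeneous nuclear ribonucleoprotein (Cluster-9520.5016) and a C-type lectin (Cluster-8647.0), each at r = 0.986. Cluster-9520.5710 and Cluster-8647.0 were listed at 0 in all adult libraries. Cluster-9520.5016 was present in both stages, at 3.62, 20.1 and 17.2 FPKM in adult replicates 1, 2 and 3, against 28.2, 36.6 and 22.5 in nymph replicates 1, 2 and 3.

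Other carriers of small hydrophobic molecules were read beside the odorant-binding clusters. Of 7 clusters for chemosensory proteins, a separate family of soluble carriers, 2 were tested. Of 28 for other carriers (fatty acid-binding proteins, retinol-binding proteins, lipocalins, NPC2 and takeout proteins and apolipophorins), 17 were tested, and of 11 for odorant and gustatory receptors and sensory neuron membrane proteins, 8. None of these 27 passed the adjusted p of 0.05 in limma, against 0.234% of all tested clusters, and 7, or 25.9%, had an unadjusted p under 0.05, against 9.05% of all tested clusters. The stages did not overlap in 8 of the 27 in deposited FPKM (29.6% against 8.66% of all tested clusters) and in 10 after rescaling (37% against 14.1%). Some of the 8, Cluster-9520.2505 among them, reached 1 FPKM only in the libraries of their higher stage. Their lack of overlap in deposited FPKM was fixed by the filter, and they are also among the 7 at an unadjusted p under 0.05. These shares are therefore not read as a stage difference of the carriers. The median differences were -1.47, -1.29 and -0.48 on the log2 scale, against -0.29 over all tested clusters.

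The 3 chemosensory clusters named here matched ejaculatory bulb-specific protein 3, a member of that family. The leading one, Cluster-9614.0, was at 3.75, 7.39 and 0.74 FPKM in adult replicates 1, 2 and 3, against 83.9, 10.3 and 18.7 in nymph replicates 1, 2 and 3 (limma adjusted p = 0.5). In deposited FPKM every nymph library stood above every adult library. After rescaling the stages overlapped, with 13.2 in adult replicate 1 against 7.53 in nymph replicate 2. The second, Cluster-9520.3794, ran from 3.34 to 16.4 FPKM in adults and from 12.4 to 31.1 in nymphs, and the third, Cluster-10754.0, was listed at 0 in adults and reached 14.7 FPKM in nymphs.

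Fatty acid-binding proteins, which carry fatty acids inside cells, were the most abundant of the other carriers and were present in both stages. Cluster-9520.3756 was at 98.8, 374 and 631 FPKM in adult replicates 1, 2 and 3, against 586, 395 and 351 in nymph replicates 1, 2 and 3 (limma adjusted p = 0.88). Cluster-9520.2955 was between 34.6 and 262 FPKM in adults and between 174.7 and 732 in nymphs (limma adjusted p = 0.61). The retinol-binding protein pinta (Cluster-9520.4933) ran from 10.5 to 179.6 FPKM in adults and from 11.8 to 77.3 in nymphs (limma adjusted p = 0.78). Cluster-9695.0, an NPC2 protein of a family that binds sterols, was at 0, 0.31 and 3.26 FPKM in adult replicates 1, 2 and 3, against 22.9, 18.2 and 12.6 in nymph replicates 1, 2 and 3. It was named after its values were seen, since its limma adjusted p was 0.081, from 0.0092 to 0.42 over 15 other settings, and 0.039 without adult replicate 3.

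Receptors of smell and taste were low in both stages, and no cluster was annotated as Orco, the co-receptor that insect odorant receptors need. An odorant receptor (Cluster-9520.2505) led them, at 2.72, 30.7 and 1.93 FPKM in adult replicates 1, 2 and 3, against 0, 0 and 0.15 in nymph replicates 1, 2 and 3 (limma adjusted p = 0.31). A gustatory receptor (Cluster-9520.2395) reached 10.2 FPKM in adults and 14.1 in nymphs, and a putative gustatory receptor 2a (Cluster-9520.3796) reached 6.28 in adults and 11.7 in nymphs.

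**Figure D4:**
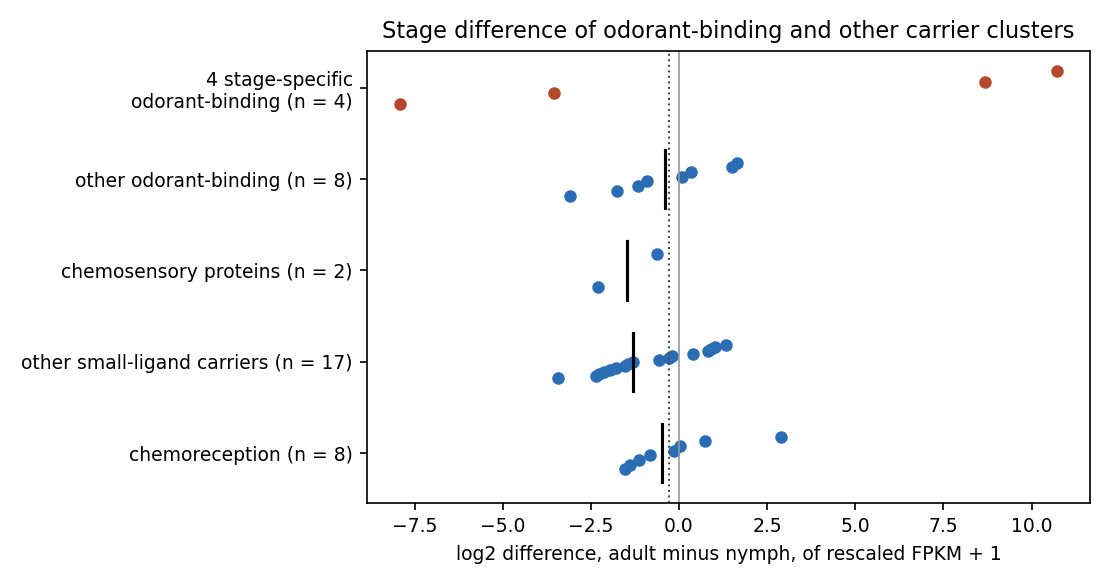
Difference between stages, adult minus nymph, on the log2(rescaled FPKM + 1) scale for each tested cluster of 5 groups; black bars are group medians, the dotted line is the median of all tested clusters at -0.29, and the grey line is 0. The 4 stage-specific clusters, chosen for their difference, lie at both ends, and the other groups lie between -3.5 and 3. Cluster-9681.0, plotted at -3.55 by way of the added 1, lies close to Cluster-9695.0 of the other carriers, at -3.43.

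Markers of tissues beside the gland were read for each stage, as sums of rescaled FPKM. Venom gland markers were high throughout: the 68 clusters summed to between 86710 and 327600 in adults and between 68990 and 131900 in nymphs. Markers of olfactory neurons were low and overlapped, with 14 clusters between 10.2 and 49.4 in adults and between 15.8 and 53.6 in nymphs, of which 1 was listed at 0 in all adult libraries and 2 in all nymph libraries.

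Epidermal markers had lower sums in adults, the direction of the nymph clusters. The 34 epidermal clusters summed to between 16.1 and 55.5 in adults and between 136 and 527 in nymphs, and 22 of them were listed at 0 in all adult libraries. Of the 12 tested, 1 was called lower in adults and 0 higher, against 0.134% and 0.1% of all tested clusters. The called one, Cluster-9520.3694, was listed at 0 in all adult libraries and passed the filter through the nymph libraries alone. Nothing is read from that call. The most abundant, Cluster-9520.4362, has the first name protein gar2 and a cuticle protein only as a further name. Without it the other 33 summed to between 5.13 and 13.1 in adults and between 88.5 and 443 in nymphs. Muscle markers also had lower sums in adults, with 0 of 41 tested clusters called in either direction, against 0.234% of all tested clusters. The 72 muscle clusters summed to between 208 and 543 in adults and between 625 and 1059 in nymphs, with 13 at 0 in all adult libraries and 5 in all nymph libraries. The part of either in the nymph clusters' values was not tested.

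Of 5 tested fat body clusters, 0 were called in either direction, against 0.234% of all tested clusters. All 5 vitellogenin clusters, of the egg yolk precursor, were above 0 in at least 1 adult library and listed at 0 in all nymph libraries, at summed FPKM of 15.6, 4.28 and 88.4 in adult replicates 1, 2 and 3. After rescaling the sums were 55.0, 2.61 and 56.7 in adult replicates 1, 2 and 3. Hexamerin, a storage protein with 2 clusters, summed to 2.04, 0.34 and 2.09 FPKM in adult replicates 1, 2 and 3, against 17.96, 22.1 and 13.4 in nymph replicates 1, 2 and 3. The whole list of 15, with 6 clusters at 0 in all adult libraries and 6 in all nymph libraries, summed to between 2.86 and 74.3 in adults and between 35.0 and 42.2 in nymphs; its part in the values of the 4 clusters was not tested. Neuronal markers (11 clusters, from 33.0 to 102 in adults and from 21.4 to 39.5 in nymphs) and haemocyte markers (4 clusters, from 0 to 6.22 and from 0 to 22.1) overlapped between stages. Of the neuronal 102, in adult replicate 3, 69.7 came from Cluster-38.0, which was listed at 0 in every other library.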

How the data were processed

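Venom glands of adults and 5th instar nymphs were profiled by RNA-seq, 3 libraries each. The deposited values are FPKM per transcript cluster, with match scores and E-values from sequence databases given by the authors. The submitters' processing notes list the tools DESeq2 1.20.0, featureCounts 1.5.0-p3, HISAT2 2.0.5, fastp and CASAVA 1.8 without their roles; the assembler and the maker of the FPKM are not given in the sources used here. Clusters carry no genome position.

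The 4 clusters and the lists were chosen with earlier results of these data known. Odorant-binding clusters were found by protein name or the PBP/GOBP family; clusters with only the ontology term odorant binding, receptors and a kinase, stayed out. Named were the 4 clusters, every other odorant-binding cluster, the 3 most abundant of each other list and the 3 most alike clusters for each of the 4.

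FPKM were divided by library factors of 0.2835, 1.643 and 1.559 in adult replicates 1, 2 and 3, against 1.022, 1.361 and 0.9902 in nymph replicates 1, 2 and 3. The stages were compared with limma 3.58.1 (R 4.3.3; trend and robust) on log2(rescaled FPKM + 1), which understates changes of low clusters. On simulated data for 11961 clusters with the spread of these libraries, adult minus nymph, the test made 1 false call. It found 0 of 50 clusters at a 2-fold change, 1 of 50 at a 4-fold change, 20 of 50 at a 16-fold change and 34 of 50 at a 64-fold change. The changed clusters were drawn from those above the median level, so recovery among lower clusters was not measured. Fragments were recovered by fitting a total and a length offset (217 to 293 bases) per library on clusters of 500 to 1100 bases below 3 FPKM. In clusters of 1100 to 1500 bases left out of that fit, 99.4% to 99.8% of values came within 0.15 of a whole fragment. Fragment numbers carry counting error, and PCR duplicates are not told apart. Alternatives were other scalings, pseudocounts, filters, limma settings, a replicate block and each library left out.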

Additional observations from a re-analysis of the deposited data

How the results depend on the processing

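The 0 calls among other odorant-binding clusters held in all 15 alternatives (limma). Of 28 clusters called between stages, the count was 72 on FPKM as deposited, 12 with a pseudocount of 0.1, 104 with no filter and 65 with a mean FPKM filter. It ran from 1, without adult replicate 2, to 54, without adult replicate 3, and was 4 without adult replicate 1 and 6, 9 and 9 when nymph replicate 1, 2 or 3 was left out; the causes were not tested. Among chemosensory, other carrier and receptor clusters, 0 were called, with 1 (Cluster-9695.0) under no filter and under a mean FPKM filter, and from 0 to 1 with single libraries left out. The replicate block gave 29 calls. Same-numbered libraries deviated together only in part (correlations of 0.16, -0.043 and 0.21 for replicates 1, 2 and 3). Adult replicates 1 and 3 correlated best with the nymph library of their own number, and adult replicate 2 with nymph replicate 1 (0.14). With 3 libraries per stage these correlations constrain each other, so whether the numbers pair the samples cannot be told from them.

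The log2 differences of the 3 clusters with a value in both stages kept their direction, which the choice of these clusters had fixed in advance. With a pseudocount of 0.1 they were 13.3 for Cluster-9520.6260, 11.27 for Cluster-9520.6256 and -10.94 for Cluster-9520.4318, since a smaller pseudocount widens differences against values near 0. For Cluster-9520.4318 the value was -8.03 on FPKM as deposited, -8.11 at equal total FPKM and -8.86 with a pseudocount of 0.5. With single libraries left out, an alternative chosen after seeing the data, it ran from -8.22 to -7.78, from 10.51 to 10.95 for Cluster-9520.6260 and from 8.49 to 8.93 for Cluster-9520.6256. Leaving out a library of a cluster's own higher stage gave no value, because it then missed the filter of 3 libraries. Fragment numbers moved within counting error when the offsets were fitted on clusters of 400 to 900 bases.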
